A study of Mus musculus with 16 samples.

Results

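Bile ducts are lined by cholangiocytes, and under chronic injury cells with duct markers can spread from the portal tracts into the lobule, the ductular reaction. Hepatocytes can also switch on part of the duct programme, and liver tumours can regain genes of the fetal and progenitor liver. The genes described here were 7 markers of bile duct and progenitor cells, selected by symbol from the 47069 gene IDs of the deposited table: Krt7, Krt19, Epcam, Sox9, Prom1, Cd24a and Cldn4. Krt7 and Krt19 encode keratins of duct cells, Epcam a surface adhesion molecule of epithelia, and Sox9 a transcription factor of the duct lineage. Prom1 encodes prominin-1 (CD133), a membrane protein of cell protrusions used as a progenitor and tumour cell marker. Cd24a encodes a small glycosylated surface protein of progenitors that blood cells, among them immature granulocytes, also carry, and Cldn4 a claudin of tight junctions.

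The mice belonged to a model of hepatocellular carcinoma induced with diethylnitrosamine (DEN), a carcinogen that hepatocytes activate, and every library came from a DEN-treated mouse, so no group without DEN was compared. mRNA sequencing gave 16 libraries in 6 groups: tumours at 9 months on a high-fructose diet (3 libraries) or a cornstarch diet (2), livers at 9 months on the high-fructose diet (3) or the cornstarch diet (3), and livers at 5 months on the high-fructose diet (2) or the cornstarch diet (3). The labels give neither strain nor sex, do not pair tumours with livers and leave unsaid whether each library is a mouse of its own. The p-values therefore describe the spread among libraries, which may in part be technical. The table held 11232461 to 38377674 reads per library. Replicate 1 of the 5-month fructose livers and replicate 1 of the 5-month cornstarch livers had high Xist and almost no Y-linked signal, unlike the other 14 libraries. Of those 14, replicate 3 of the 9-month cornstarch livers had Xist at 226 normalised counts beside a Y-linked sum of 1593, and the next highest Xist was 25.8. The levels of 5 hepatocyte markers (Alb, Apoa1, Ttr, Serpina1c, Cps1) summed to between 1134000 and 4166000 normalised counts in every library, with none of the 5 at 0 in any library.

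Levels are given below as normalised counts, which are reads divided by a size factor of the library, and 1 read was worth 0.453 to 1.54 of them. Changes are differences of log2(normalised count + 1), a scale that understates the change of low genes, with the standard error (SE) and limma's p adjusted over all genes tested, and a gene passed the test at an adjusted p under 0.05. Genes entered a test when at least 2 libraries of the fit reached 10 normalised counts. All 7 genes met this among the 11 libraries of 9 months, and 6 met it among the 11 livers, where Cldn4 did not. In bulk tissue, fewer cells of a type and less RNA per cell cannot be told apart.

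The 7 genes differed widely in level. Per kilobase of exon, the 6 group means were 67.3 to 96.0 normalised counts in the 2 tumour groups and 2.83 to 11.0 in the 4 liver groups for Prom1, and 39.7 to 74.2 in the tumour groups and 10.6 to 137 in the liver groups for Cd24a. Sox9 followed with means per kilobase of 23.9 to 24.7 in tumours and 8.01 to 15.5 in livers. Krt19, Epcam, Cldn4 and Krt7 were scarce, with group means per kilobase of at most 17.5, 11.6, 12.8 and 2.43. In reads, the scarce genes summed over all 16 libraries to 267 for Krt19, 267 for Epcam, 185 for Krt7 and 120 for Cldn4, against 4031 for Prom1, 1860 for Cd24a and 1170 for Sox9. Sctr, encoding the secretin receptor of duct cells, was listed at 0 in 13 of the 16 libraries.

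**Figure D1:**
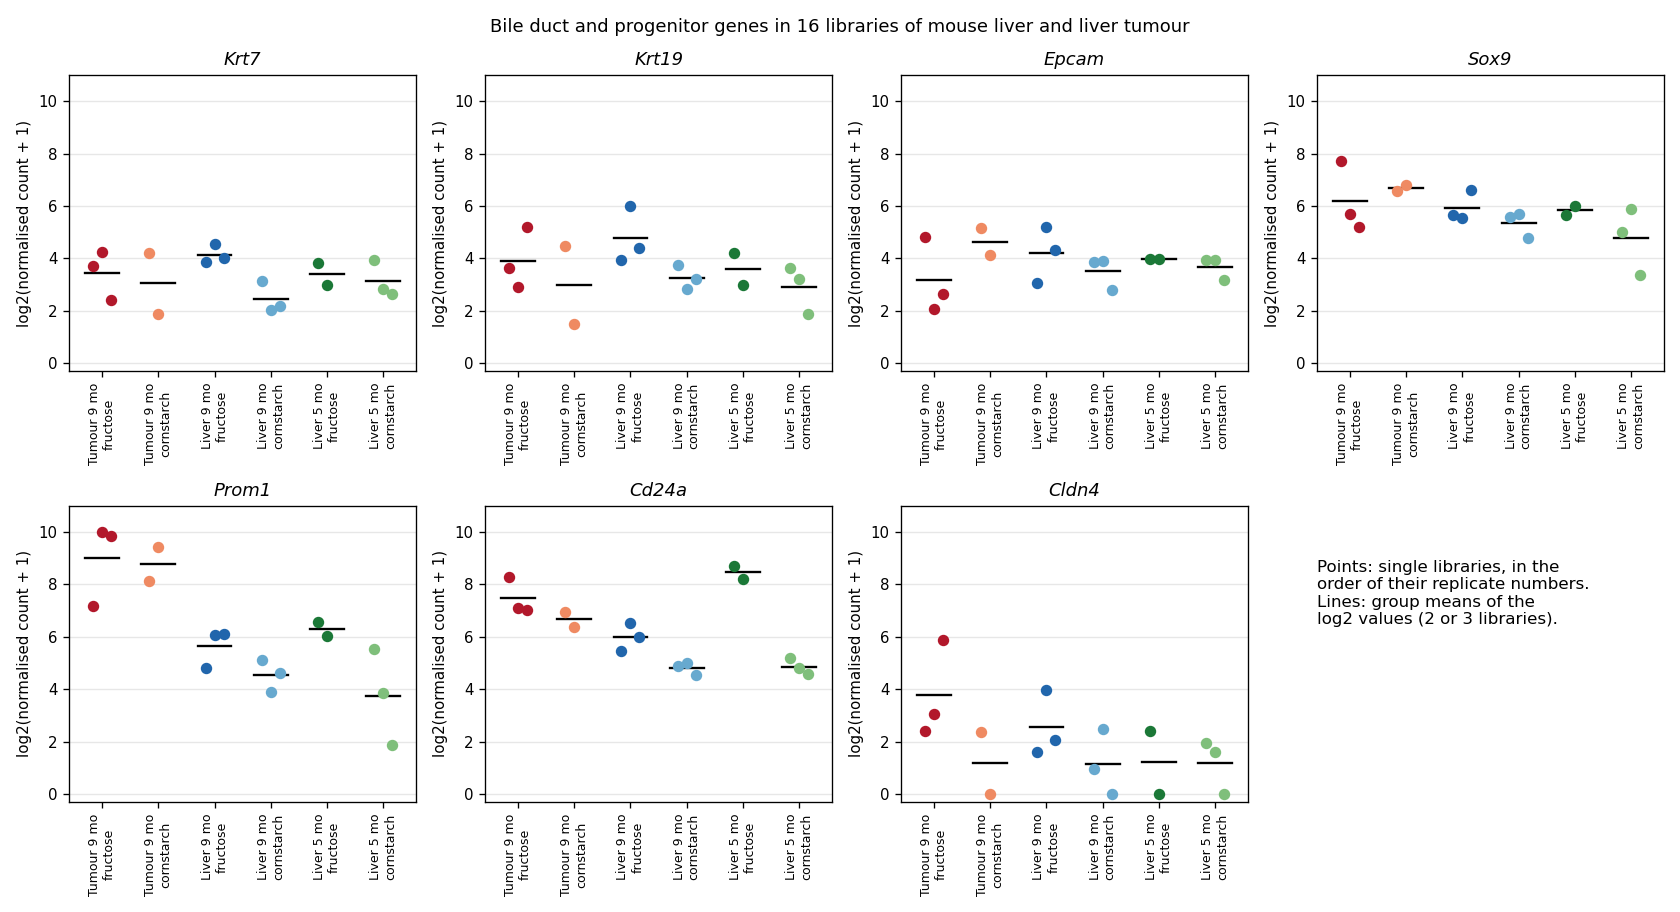
Level of each of the 7 genes as log2(normalised count + 1) on the vertical axis in the 6 groups, where points are single libraries and lines are group means. Prom1 lies higher in the 5 tumours than in the 11 livers, Cd24a is highest in the 5-month fructose livers and next in the tumours, and Krt7, Krt19 and Epcam overlap between tumours and 9-month livers.

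The comparison of tumours with livers of the same age asked which duct and progenitor genes differed in the neoplastic tissue. With the 2 diets given equal weight, Prom1 and Cd24a rose in tumours, and Krt7, Krt19, Epcam, Sox9 and Cldn4 did not pass the test. Thus 2 of the 7 genes rose and 0 fell, at a median log2 change of 0.64. Of the 14503 genes tested, 23.8% passed, 13.4% higher and 10.5% lower, at a median of -0.01. Prom1 and Cd24a also passed on their own within each diet, where 5.75% of all genes rose and 4.46% fell under fructose, and 4.82% rose and 0.889% fell under cornstarch. Groups did not overlap, with tumours higher, for these 2 of the 7 genes under fructose (17.2% of all genes) and for 4 of the 7 under cornstarch, Prom1, Cd24a, Sox9 and Epcam (21.8% of all genes).

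Prom1 (ENSMUSG00000029086, GRCm38 chromosome 5, 43993620 to 44102032, minus strand) stood at 142, 1013 and 912 normalised counts in the 3 fructose tumours, against 27.1, 66.1 and 68.4 in the 3 fructose livers of 9 months. It stood at 278 and 687 in the 2 cornstarch tumours, against 33.8, 13.8 and 23.8 in the 3 cornstarch livers of 9 months. The lowest tumour, replicate 1 under fructose, was above the highest of all 11 livers, which was 93.3. Over both diets Prom1 was 13.7-fold higher in tumours (log2 change 3.78, SE 0.54, limma adjusted p = 0.00115). This call held in all 20 alternative settings, with log2 changes of 3.45 to 4.24 as each library was left out. The rise was 10.0-fold under fructose (log2 change 3.33, SE 0.72, limma adjusted p = 0.0178) and 18.8-fold under cornstarch (log2 change 4.23, SE 0.80, limma adjusted p = 0.0156). Within a diet the call was lost without replicate 1 of the fructose livers (adjusted p = 0.0655) or replicate 2 of the fructose tumours (adjusted p = 0.0538). Under cornstarch it was lost without replicate 2 of the livers (adjusted p = 0.0582) or replicate 2 of the tumours (adjusted p = 0.202). Reads of Prom1 cannot be told apart from those of Gm16401, an antisense gene whose exons overlap it and which reached 8.20 normalised counts, unless strand was used in counting.

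RefSeq gave promoter windows for 4 of the 7 genes on GRCm38.p6, namely Prom1 with 2 start sites, Krt7, Epcam and Cldn4. The 250 bases before each start were searched on both strands for 4 motifs. The TATA box was read as TATAAA and is present in 12.4% of the 32851 windows of the table. The letters bound by TEAD factors were read as GGAATG and are present in 12.6%. Those bound by RBPJ, the DNA-binding partner of Notch, were read as TGGGAA and are present in 21.6%. An arm of the HNF1 site was read as GTTAAT and is present in 6.43%. The RBPJ and TEAD motifs share the letters GGAA and can overlap. The search found 1 match in the 5 windows, a reverse-strand TGGGAA 116 to 111 bases before the upstream start of Prom1, in a stretch that GENCODE annotates as untranslated exon. A match is a description of letters and not a bound site. The sequences below show that site, the whole window of the downstream Prom1 start, which lies within a gene but in no annotated exon, and the Epcam window, which overlaps no annotated gene, as those of the gene with the largest rise in tumours and of a duct gene that did not pass there. Capitals mark the motif match, and each sequence is given 5′ to 3′ on the gene's strand.
Prom1 site, chr5:44101835-44101864, minus strand: ggacgcaacaggTTCCCAgagtcctggagt
Prom1 downstream start, chr5:44094769-44095018, minus strand: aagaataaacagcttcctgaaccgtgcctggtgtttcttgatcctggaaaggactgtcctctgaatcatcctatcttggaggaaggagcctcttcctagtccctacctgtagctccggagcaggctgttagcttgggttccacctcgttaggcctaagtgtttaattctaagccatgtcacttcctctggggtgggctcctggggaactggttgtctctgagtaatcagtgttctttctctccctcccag
Epcam, chr17:87635729-87635978, plus strand: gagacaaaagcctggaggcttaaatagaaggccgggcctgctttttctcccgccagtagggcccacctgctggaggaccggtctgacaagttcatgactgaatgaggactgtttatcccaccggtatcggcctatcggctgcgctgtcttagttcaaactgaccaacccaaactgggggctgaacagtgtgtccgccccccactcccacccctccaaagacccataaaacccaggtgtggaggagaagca

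Cd24a (ENSMUSG00000047139, chromosome 10, 43578284 to 43584265) stood at 311, 134 and 129 normalised counts in the 3 fructose tumours, against 42.7, 90.7 and 63.4 in the 3 fructose livers of 9 months. It stood at 124 and 81.1 in the 2 cornstarch tumours, against 28.9, 30.7 and 22.6 in the 3 cornstarch livers of 9 months. Tumours and livers did not overlap within either diet, but across diets the lower cornstarch tumour lay below the highest fructose liver. Over both diets Cd24a was 3.15-fold higher in tumours (log2 change 1.66, SE 0.29, limma adjusted p = 0.00299), and this call held in all 20 alternative settings. Within fructose the log2 change was 1.47 (SE 0.38, limma adjusted p = 0.0358). That call was lost without fructose liver replicate 1 (adjusted p = 0.120) or 3 (0.0957), cornstarch liver replicate 1 (0.0506) or fructose tumour replicate 1 (0.0885). Within cornstarch the log2 change was 1.84 (SE 0.43, limma adjusted p = 0.0353), and that call was lost without fructose liver replicate 3 (adjusted p = 0.0556), any of cornstarch liver replicates 1, 2 and 3 (0.0669, 0.0777 and 0.0784) or either cornstarch tumour (0.139 and 0.149). The summed level of 7 markers of neutrophils and their precursors, blood cells that also carry Cd24a, was 71.0 to 164 in the tumours and 34.5 to 217 in the 9-month livers. None of the 7 markers was at 0 in a whole group, and their part in the change of Cd24a in tumours was not tested.

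Sox9 (ENSMUSG00000000567, chromosome 11, 112782224 to 112787760) varied more among tumours than between the groups. It stood at 210, 51.0 and 35.7 normalised counts in the 3 fructose tumours, against 49.9, 45.9 and 96.1 in the 3 fructose livers of 9 months. It stood at 93.4 and 111 in the 2 cornstarch tumours, against 47.3, 50.7 and 26.2 in the 3 cornstarch livers. The 2 cornstarch tumours were thus above their livers, while the fructose tumours overlapped theirs, with 1 tumour far above and 2 within or below the liver range. The log2 change was 0.27 under fructose (SE 0.58, limma adjusted p = 0.809), 1.33 under cornstarch (SE 0.64, limma adjusted p = 0.248) and 0.80 over both (SE 0.43, limma adjusted p = 0.205). Without replicate 1 of the fructose tumours the sign under fructose turned, to -0.49.

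The keratin genes of duct cells did not pass the test in tumours. Krt19 (ENSMUSG00000020911, chromosome 11, 100140810 to 100148665) stood at 11.3, 6.47 and 35.7 normalised counts in fructose tumours, against 14.6, 62.7 and 19.9 in fructose livers of 9 months, and at 21.0 and 1.82 in cornstarch tumours, against 12.5, 6.15 and 8.34 in cornstarch livers. Krt7 (ENSMUSG00000023039, chromosome 15, 101411043 to 101430313) stood at 12.2, 17.8 and 4.35 in fructose tumours, against 13.5, 22.4 and 15.4 in fructose livers, and at 17.7 and 2.73 in cornstarch tumours, against 7.71, 3.07 and 3.57 in cornstarch livers. Tumours and livers overlapped for both genes under both diets. The exons of Krt7 overlap those of Gm671, an antisense gene whose level was not given. Reads of Krt7 and Gm671 cannot be told apart unless strand was used in counting. The log2 changes under fructose and cornstarch were -0.87 (SE 0.84) and -0.29 (SE 0.94) for Krt19, and -0.69 (SE 0.67) and 0.61 (SE 0.75) for Krt7. Of 4 other simple epithelial keratin genes tested (5 listed), 3 rose and 0 fell, at a median log2 change of 1.43. Among them were the keratins that hepatocytes make: Krt18 rose 2.92-fold in tumours over both diets (log2 SE 0.18, limma adjusted p = 0.000491) and its partner Krt8 rose 2.50-fold (SE 0.24, limma adjusted p = 0.00346). Krt20, a keratin of gut and urothelium, averaged 87.3 ± 64.4 (SD, n = 3) in fructose tumours and 372 ± 126 (SD, n = 2) in cornstarch tumours, against 3.47 ± 1.87 and 7.70 ± 9.51 (SD, n = 3 each) in the fructose and cornstarch livers of 9 months. Whether the change of Krt18 differed from that of Krt19 was not tested.

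Epcam (ENSMUSG00000045394, chromosome 17, 87635979 to 87651129) stood at 27.0, 3.24 and 5.22 normalised counts in fructose tumours, against 7.28, 35.8 and 19.0 in fructose livers of 9 months. It stood at 34.5 and 16.4 in cornstarch tumours, against 13.5, 13.8 and 5.96 in cornstarch livers. Both cornstarch tumours were above their livers and 2 of the 3 fructose tumours were below theirs, with log2 changes of 1.12 (SE 0.85) under cornstarch and -1.02 (SE 0.76) under fructose that did not pass the test. The diet comparison within tumours gave -1.46 for Epcam (SE 0.85, limma adjusted p = 0.679). Cldn4 (ENSMUSG00000047501, chromosome 5, 134945119 to 134946934) stood at 4.35, 7.28 and 58.3 in fructose tumours, against 2.08, 14.6 and 3.17 in fructose livers. It stood at 4.21 and 0 in cornstarch tumours, against 0.964, 4.61 and 0 in cornstarch livers, and a count of 0 allows up to 2.73 in that tumour and 3.57 in that liver. Replicate 3 of the fructose tumours held 67 of the 120 Cldn4 reads of all libraries. Log2 changes were 1.24 (SE 1.10) under fructose and 0.04 (SE 1.23) under cornstarch. The upper limits given for counts of 0 cover counting error only.

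**Figure D2:**
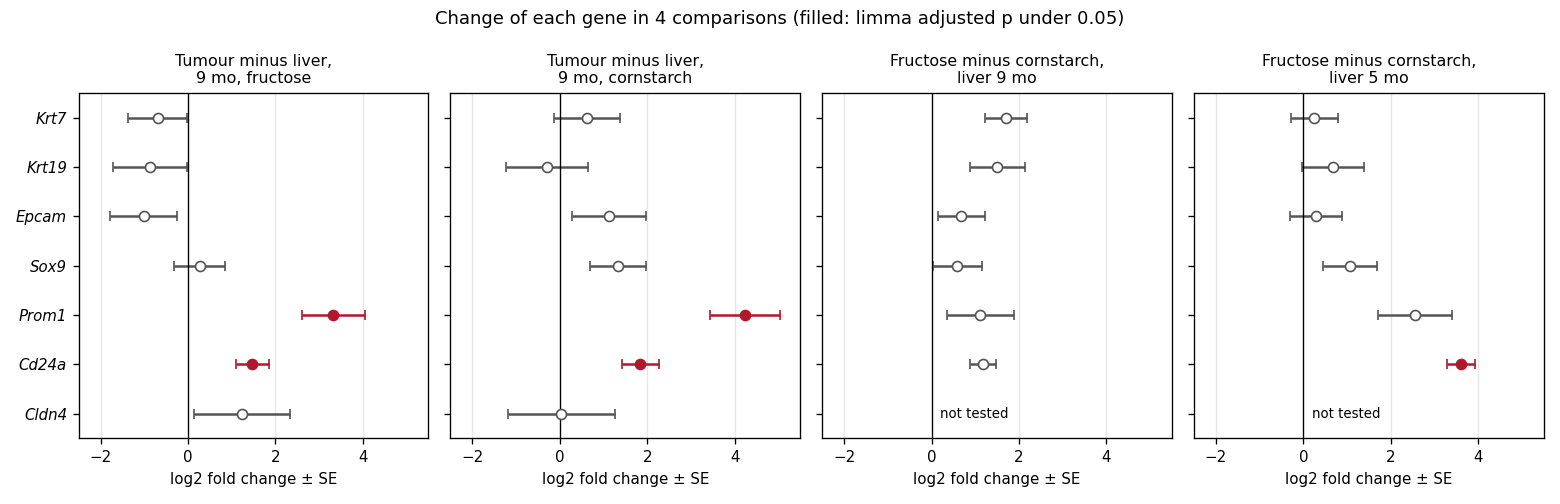
Log2 fold change with its SE on the horizontal axis for the 7 genes in 4 comparisons, 1 per panel, with filled points for an adjusted p under 0.05. Prom1 and Cd24a pass in tumours under both diets, Cd24a passes in the 5-month livers, and Cldn4 was not tested among livers.

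The 5 tumours carried different sets of these genes. Replicate 1 of the fructose tumours had the highest Sox9 (210) and Cd24a (311) of the tumours and the lowest Prom1 (142). Replicates 2 and 3 under fructose had the highest Prom1 (1013 and 912), with Epcam at 3.24 and 5.22, the lowest of all 16 libraries. Replicate 3 under fructose also had the highest Krt19 (35.7) and Cldn4 (58.3) of the tumours. Replicate 1 under cornstarch had the highest Epcam of the tumours (34.5), and replicate 2 under cornstarch the lowest Krt7 (2.73) and Krt19 (1.82). Among tumours the highest value was 7.15 times the lowest for Prom1, 3.84 times for Cd24a, 5.90 times for Sox9, 6.51 times for Krt7, 10.7 times for Epcam and 19.6 times for Krt19. By gene, 5 of 5 tumours lay above all 6 livers of 9 months for Prom1, 4 of 5 for Cd24a, 2 of 5 for Sox9, 1 of 5 for Cldn4 and 0 of 5 for Krt7, Krt19 and Epcam. By tumour, 3 of the 7 genes lay above all those livers in fructose tumours 1 and 3, and 2 in the other 3 tumours. The share of all genes that lay above those livers was not computed, so these counts cannot be read as particular to the 7 genes.

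**Figure D3:**
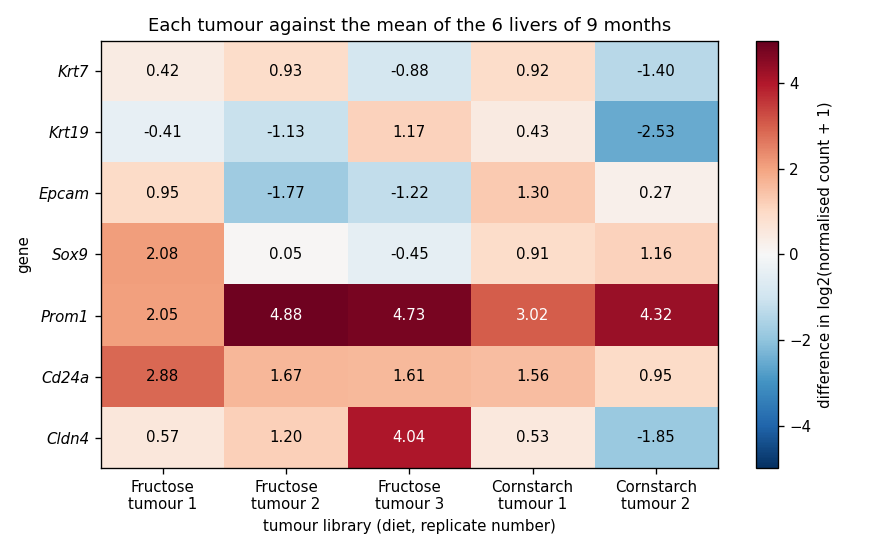
Each of the 5 tumours (columns) against the mean of the 6 livers of 9 months, as a difference in log2(normalised count + 1) that is printed and coloured in each cell, for the 7 genes (rows). The Prom1 row is positive in every tumour, at 2.05 to 4.88, and the rows of Krt7, Krt19, Epcam, Sox9 and Cldn4 change sign between tumours.

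At 5 months the comparison asked whether fructose altered these genes in liver at the earlier age. Cd24a rose 12.2-fold in the fructose livers (log2 change 3.60, SE 0.33, limma adjusted p = 0.000194), and this was the 1 gene of the 6 tested that passed, where 10.3% of the 14317 genes tested rose and 4.48% fell. Edges of the groups were apart, with fructose higher, for 3 of the 6 genes, Cd24a, Prom1 and Epcam, as for 27.1% of all genes. It stood at 411 and 296 normalised counts in the 2 fructose livers, against 35.3, 26.7 and 22.6 in the 3 cornstarch livers. These were the highest Cd24a levels of any group apart from 1 fructose tumour that lay between them. The difference was present in both kinds of library by sex marker, at 411 against 35.3 in the pair with high Xist and at 296 against 26.7 and 22.6 in the libraries with Y-linked signal. The call held in all 22 alternative settings. The summed level of the 7 neutrophil markers was 21090 to 23480 in the 2 fructose livers, against 7.19 to 85.0 in the 3 cornstarch livers. Red cell precursors, which also carry Cd24a, had summed levels of 6 markers of 1620 to 1950 in the fructose livers, against 337 to 2416 in the cornstarch livers, where 1 of the 6 was at 0. The 5 B cell markers summed to 121 to 162 in the fructose livers, against 36.0 to 57.3 in the cornstarch livers. The part of these blood cells in the rise of Cd24a was not tested.

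**Figure D4:**
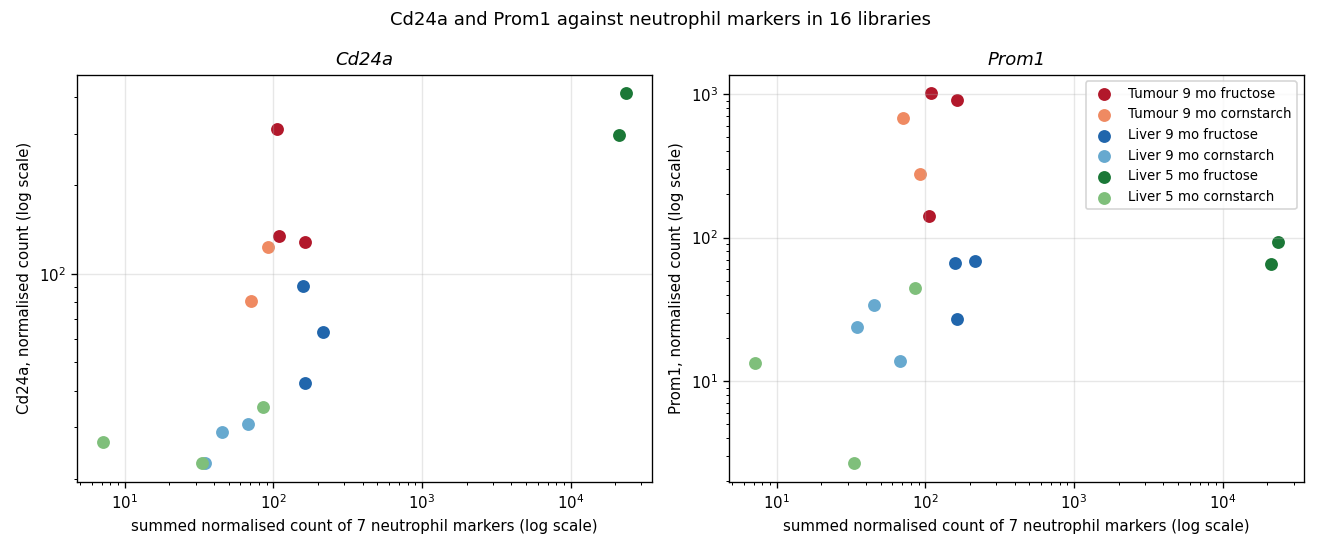
Normalised counts of Cd24a (left) and Prom1 (right) on logarithmic vertical axes against the summed level of 7 neutrophil markers on a logarithmic horizontal axis, with 1 point per library coloured by group. The 5-month fructose livers stand apart at 21090 to 23480 on the horizontal axis with Cd24a at 296 and 411, while the tumours reach Cd24a of 81.1 to 311 at marker sums of 71.0 to 164.

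Prom1 stood at 93.3 and 65.1 in the 5-month fructose livers, against 44.9, 13.4 and 2.66 in the cornstarch livers, so the groups did not overlap. Its log2 change of 2.56 (SE 0.85, limma adjusted p = 0.0697) missed the threshold. It passed without cornstarch replicate 1 (3.45, adjusted p = 0.0103) and shrank to 1.62 without cornstarch replicate 3, and the adjusted p reached 0.246 without fructose replicate 1. Sox9 stood at 49.6 and 62.8, against 31.5, 58.5 and 9.32 (log2 change 1.07, SE 0.63, limma adjusted p = 0.289). Krt19 stood at 17.5 and 6.85, against 11.5, 8.22 and 2.66, and Krt7 at 13.1 and 6.85, against 14.3, 6.16 and 5.33, and both overlapped. Their log2 changes were 0.69 (SE 0.71) and 0.25 (SE 0.54). Epcam stood at 14.6 and 14.8, against 14.3, 14.4 and 7.99, a log2 change of 0.29 (SE 0.60). Of Cldn4, fructose livers had 3 and 0 reads, and cornstarch livers had 3, 2 and 0.

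At 9 months the diet comparison asked the same of livers at the age of tumour harvest. All 6 genes tested had positive log2 changes at a median of 1.15, but 0 passed with limma, where 2.32% of all genes rose and 0.217% fell, at a median of -0.02. With an unadjusted limma p under 0.05 there were 3, Krt7, Krt19 and Cd24a, as there were 2939 of all 14317 genes. edgeR called 0 of the 6, and 387 of all genes. DESeq2 called 1, Cd24a (adjusted p = 0.00884), and 960 of all genes. The 3 genes were higher in every fructose liver than in any cornstarch liver, a separation that 12.9% of all tested genes showed in that direction. For Krt7 the fructose livers held 13, 20 and 34 reads, against 8, 2 and 3 in the cornstarch livers. For Krt19 the lowest fructose liver held 14 reads and the highest cornstarch liver 13. Krt7 (levels as given above) had a log2 change of 1.70 (SE 0.48, limma adjusted p = 0.0917), Krt19 of 1.51 (SE 0.63, limma adjusted p = 0.212) and Cd24a of 1.17 (SE 0.29, limma adjusted p = 0.0647). Prom1 had 1.12 (SE 0.76), Epcam 0.68 (SE 0.54) and Sox9 0.59 (SE 0.56), and their groups overlapped. Replicate 2 of the fructose livers had the highest Krt7, Krt19 and Cldn4 of the 11 livers, at 22.4, 62.7 and 14.6, and the highest Epcam, at 35.8. Outside the 7 genes, 6 duct markers summed to 1561 to 1798 in the fructose livers of 9 months, against 1121 to 1352 in the cornstarch livers. In the latter 2 of the 6 were at 0, and Spp1 made up most of each sum. The summed level of 5 mesothelial markers, cells that share Krt7 and Krt19 with ducts, was 11.4 to 36.2 in the fructose livers of 9 months. It was 1.54 to 7.15 in the cornstarch livers, where 1 of the 5 was at 0. At 5 months the mesothelial sums were 28.6 to 90.4 in fructose livers and 0 to 34.6 in cornstarch livers. The 7 neutrophil markers, from cells that carry Cd24a, also differed, with sums of 158 to 217 in the fructose livers, against 34.5 to 67.6 in the cornstarch livers, and none at 0 in a whole group. Of 8 neutrophil genes tested 1 rose, Mpo, and of 8 stellate cell and matrix genes 4 rose. The 3 defining stellate and matrix markers summed to 1386 to 3048 in the fructose livers, against 490 to 618 in the cornstarch livers. The part of these cells in the values was not tested.

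Among tumours, 0 of the 7 genes passed between diets with limma, edgeR or DESeq2, and 0 had an unadjusted p under 0.05 with limma or edgeR and 1 with DESeq2. Of all 14503 genes, 0.0% passed with limma, where 1178 had an unadjusted p under 0.05, and DESeq2 called 107. Cldn4 was higher in every fructose tumour than in either cornstarch tumour (log2 change 2.60, SE 1.23, limma adjusted p = 0.622), as was Cd24a (0.80, SE 0.43, limma adjusted p = 0.660), a separation that 10.9% of all tested genes showed. The difference of the diet effect between tumour and liver passed for 0 of the 7 genes with limma, edgeR or DESeq2 and for 0 at an unadjusted p under 0.05. With limma it passed for 0.0% of all genes, and 424 had an unadjusted p under 0.05.

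Between the ages, Cd24a was lower at 9 months than at 5 months under fructose, at 42.7 to 90.7 against 296 and 411 (log2 change -2.46, SE 0.33, limma adjusted p = 0.00392), where 2.81% of all genes fell and 0.664% rose. The groups did not overlap for Cd24a, as for 22.3% of all genes in that direction, nor for Krt7, which was higher at 9 months (13.5 to 22.4) than at 5 months (6.85 and 13.1) as 17.5% of all genes were. Without the 2 libraries with high Xist the Cd24a call was lost (-2.22, adjusted p = 0.0510). Under cornstarch Cd24a stood at 22.6 to 30.7 at 9 months, against 22.6 to 35.3 at 5 months. The diet effect on Cd24a was smaller at 9 than at 5 months, by 2.43 on the log2 scale (SE 0.44, limma adjusted p = 0.0422), a difference that 0.691% of all genes passed in that direction and 0.00698% in the other. It passed in 6 of 21 alternative settings. Of the other 5 genes tested, 0 passed between ages under either diet with limma, edgeR or DESeq2, and 0 had an unadjusted p under 0.05. An unadjusted limma p under 0.05 between ages was found for 2490 of all genes under fructose and 2051 under cornstarch. Under cornstarch 0.0% of all genes passed between ages with limma, and DESeq2 called 150. These comparisons share groups with the diet comparisons and are not independent of them.

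By group mean, Prom1 was ordered from fructose tumours (689 ± 476) and cornstarch tumours (483 ± 289) over 5-month fructose livers (79.2 ± 20.0), 9-month fructose livers (53.9 ± 23.2) and 9-month cornstarch livers (23.8 ± 9.96) to 5-month cornstarch livers (20.3 ± 21.9). Each step within tumours and within livers joined groups whose values overlapped, and the step from tumours to livers did not. Cd24a was ordered from 5-month fructose livers (354 ± 81.6) over fructose tumours (191 ± 104), cornstarch tumours (102 ± 30.1) and 9-month fructose livers (65.6 ± 24.1) to the 5-month and 9-month cornstarch livers (28.2 ± 6.47 and 27.4 ± 4.25). Neighbours in this order overlapped, except fructose and cornstarch tumours, and the 9-month fructose livers and 5-month cornstarch livers. The errors are SDs over the 2 or 3 libraries of a group.

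Other genes of ducts and progenitors were read from lists, whose counts are set against the same 13.4% higher and 10.5% lower over all genes in tumours, 10.3% and 4.48% in 5-month livers and 2.32% and 0.217% in 9-month livers. Of 18 other cholangiocyte genes tested (24 listed), 7 rose and 0 fell in tumours over both diets, at a median log2 change of 0.76. Cdh1, encoding E-cadherin, rose 6.64-fold (log2 SE 0.23, limma adjusted p = 9.62e-05), St14, encoding the membrane protease matriptase, 22.3-fold, Bicc1, encoding an RNA-binding protein of tubule epithelia, 3.28-fold and Spp1, encoding osteopontin, 4.61-fold. Hepatocytes also make E-cadherin and macrophages also make osteopontin. In 5-month livers 4 of the 18 rose under fructose and 1 fell, among them Spp1 (3.78-fold) and the glucose transporter gene Slc5a1 (3.95-fold), and the keratin gene Krt23 stood at 3.49 ± 3.32 in fructose livers (SD, n = 2), against 65.5 ± 57.1 in cornstarch livers (SD, n = 3). Ggt1, encoding gamma-glutamyl transferase, stood at 13.1 and 26.3 in the fructose livers, against 0 in all 3 cornstarch livers, where a count of 0 allows up to 2.86 to 3.99 per library. The Krt23 call was lost without fructose replicate 2 (adjusted p = 0.184) or cornstarch replicate 2 (0.0543), and that of Slc5a1 without fructose replicate 1 (0.186) or cornstarch replicate 2 (0.0793) or 3 (0.0748). In 9-month livers 0 of the 18 passed the limma test.

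Of 10 progenitor and oval cell genes tested (15 listed), 5 rose and 0 fell in tumours at a median log2 change of 1.08. Afp, encoding alpha-fetoprotein, the serum protein of fetal liver, averaged 3159 ± 3059 in fructose tumours (SD, n = 3) and 8612 ± 1464 in cornstarch tumours (SD, n = 2), against 245 ± 221 and 225 ± 163 in the fructose and cornstarch livers of 9 months (SD, n = 3 each). Gpc3, a heparan sulphate proteoglycan gene of fetal liver, rose 32.9-fold (log2 change 5.04, SE 0.77, limma adjusted p = 0.00156). Tnfrsf12a, the receptor gene of the TWEAK cytokine that drives oval cell growth in mice, rose 9.64-fold (log2 SE 0.25, limma adjusted p = 6.58e-05), and the integrin gene Itga6 8.01-fold. In 5-month livers 3 of the 10 rose under fructose, Itga6 (3.31-fold), the adhesion gene Ncam1 (5.62-fold) and the hyaluronan receptor gene Cd44 (3.04-fold), and in 9-month livers 0 passed the limma test. Afp did not pass at 5 months, at 27.7 and 38.8 in fructose livers, against 20.0, 37.0 and 42.6 in cornstarch livers. Dlk1 stood at 0 and 2.28, against 0 in each cornstarch liver. The neutrophil markers summed to 21090 to 23480 in these fructose livers, and the part of blood cells was not tested. The Itga6 call was lost without either fructose liver (adjusted p = 0.0919 and 0.0750) or cornstarch replicate 2 (0.0509), and that of Cd44 without either fructose liver (0.124 and 0.179) or cornstarch replicate 2 (0.105) or 3 (0.0655).

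In tumours 13.4% of all genes rose. Notch signals, which steer progenitors to the duct fate and act upstream of Sox9, were read from 15 genes tested there. Of these 2 rose, the feedback inhibitor gene Nrarp (2.55-fold) and the receptor gene Notch3 (2.07-fold, lost without replicate 2 of the cornstarch tumours at an adjusted p = 0.0592). In livers 1 of 14 rose under fructose at 9 months, the target gene Hey1 (3.20-fold), and 1 of 14 at 5 months, the endothelial receptor gene Notch4 (2.85-fold). Of all genes 2.32% rose under fructose at 9 months and 10.3% at 5 months. The Notch counts in tumours and in 5-month livers thus did not exceed the shares of all genes. The Hey1 call held in 4 of 22 alternative settings, and that of Notch4 was lost without either 5-month fructose liver (adjusted p = 0.0714 and 0.0788). Of 16 genes of YAP and TEAD, the growth pathway that can turn hepatocytes toward the duct fate, 5 rose and 0 fell in tumours at a median of 0.39. Ajuba, encoding an inhibitor of the Hippo kinases, rose 3.20-fold, the transcription factor genes Tead4 and Tead2 rose 6.43-fold and 2.54-fold, and Wwtr1, encoding TAZ, rose 1.33-fold, a call lost without fructose liver replicates 2 (adjusted p = 0.0572) or 3 (0.0508) or cornstarch tumour replicate 2 (0.135). In 5-month livers the YAP target genes Cyr61 and Amotl2 fell under fructose, 3.04-fold and 1.73-fold, as 2 of 14 tested, and 0 rose. The median log2 change of the 14 was 0.17. Ctgf of the same list, which did not pass, stood at 583 and 740 in fructose livers, against 364, 146 and 71.9 in cornstarch livers. The Cyr61 call was lost without either fructose liver (adjusted p = 0.0973 and 0.151) or cornstarch replicate 2 (0.0859) or 3 (0.0558), and that of Amotl2 without fructose replicate 2 (0.309) or cornstarch replicate 2 (0.0947) or 3 (0.0607). In 9-month livers 1 of 14 rose under fructose, the receptor kinase gene Axl (2.85-fold), a call that held in 16 of 22 alternative settings.

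Of 13 claudin and tight junction genes tested beside Cldn4, 7 rose and 1 fell in tumours, at a median of 0.84. Among those that rose were F11r, encoding the junctional adhesion molecule JAM-A (2.22-fold), the claudin gene Cldn14 (2.73-fold) and Marveld2, encoding tricellulin (2.12-fold). In 5-month livers Cldn14 rose 3.93-fold and Cldn15 6.88-fold under fructose, and Cldn12 fell 1.44-fold, a call that held in 7 of 22 alternative settings, while 0 of 13 passed the limma test in 9-month livers. Medians of all tested genes lay between -0.03 and 0.01 in every comparison named here. Markers of exocrine pancreas other than Cela1, which is expressed in these livers, reached at most 4.55 normalised counts. Of 5 gut markers, Cdx1 and Cdx2 were at 0 in all 16 libraries and Muc2 in 7, with a highest level of 3.99, while Fabp2 and Lgals4 were at 0 in none and reached 3301 and 921.

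Across the 16 libraries, the genes with the pattern most like Prom1 by Pearson's r of log2 values were Ggct (0.95), encoding a glutathione-cycle enzyme, the lipase gene Abhd2 (0.93) and Ocstamp (0.93). Ocstamp averaged 865 in fructose tumours and 550 in cornstarch tumours, against 66.0 and 28.0 in the fructose and cornstarch livers of 9 months. For Cd24a they were Osmr (0.96), encoding the oncostatin M receptor, Selenon (0.93) and Cerk (0.92), and Osmr averaged 428 in 5-month fructose livers, against 69.1 in 5-month cornstarch livers. For Epcam they were Stk36 (0.88), Scara3 (0.87) and the prostaglandin transporter gene Slco2a1 (0.84). For Sox9 they were Hr (0.88), Zfp518a (0.84) and Trmt12 (0.84), and for Cldn4 Kif1a (0.86), Rtn4 (0.84) and Mgat3 (0.81). For Krt7 they were Loxl1 (0.80), Mmp23 (0.79) and Ptpn13 (0.78), and for Krt19 Mal (0.79), Dnase1l1 (0.78) and Erbb2 (0.76). These are descriptions over 16 libraries that share their groups and their depth, chosen from 12346 genes. Among the 7 genes themselves, deviations of log2 values from the group means had r = 0.94 for Epcam with Cd24a over the 16 libraries and 0.88 over the 11 livers, 0.80 and 0.71 for Krt19 with Cldn4, and 0.45 and 0.82 for Krt7 with Krt19. For Prom1 with the other 6 genes such r lay between -0.22 and 0.36 over the 16 libraries and between 0.43 and 0.79 over the 11 livers.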

How the data were processed

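The deposited table held signal values, normalised counts per gene and library, that the authors had made by dividing each library by 1 factor, as the values show. Tools named in the submitters' processing notes are STAR, RSEM and DESeq2 beside FastQC and Trim Galore, with the build GRCm38, and an mRNA kit in the labels' protocols. Versions, settings and strandedness were not given in the sources used here. Dividing by the step of each library recovered whole reads (within 0.01) for 100% of values above 0. IDs were matched to GENCODE M21 (98.8%) for coordinates and exon lengths, and promoters came from RefSeq.

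Log2(value + 1) was fitted with limma 3.58.1 (R 4.3.3), a mean per group and a variance trend, on the 11 livers or the 11 libraries of 9 months, with Benjamini-Hochberg adjustment over all genes with at least 10 in at least 2 libraries of the fit. edgeR 4.0.16 and DESeq2 1.42.0 were run on the recovered reads as alternatives, beside other pseudocounts, filters, scalings, array weights, sets of libraries and each library left out. A group left with 1 library was taken to vary like the others. The pipeline was tested on simulated data. Replicates were numbered in accession order. The 7 genes, the lists and the tests were chosen with earlier results of these data known. Named genes were the 7, up to 4 list members with the smallest p among those past the threshold, and the 3 most similar genes to each of the 7. Some list members that this rule names are not reported here.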

Additional observations from a re-analysis of the deposited data

Results flagged for a closer look

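The diet effect on Cd24a differed between the ages. It was 1.17 on the log2 scale in livers of 9 months and 3.60 in livers of 5 months, and the difference, 9 minus 5 months, was -2.43 (SE 0.44, limma adjusted p = 0.0422). Fructose livers stood at 42.7, 90.7 and 63.4 normalised counts at 9 months and at 411 and 296 at 5 months, and cornstarch livers at 28.9, 30.7 and 22.6 at 9 months and 35.3, 26.7 and 22.6 at 5 months. The difference kept its sign in all 21 alternative settings and passed in 6 of them. The summed level of 7 neutrophil markers moved with it, at 158 to 217 in fructose livers of 9 months and 21090 to 23480 in those of 5 months, and its part was not tested.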

How the results depend on the processing

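The 2 genes that rose in tumours over both diets passed in all 20 alternatives. Within fructose the count of 2 became 1 with no filter on low values and 0 in a fit of only the groups compared, and ranged from 0 to 2 as libraries were left out. Within cornstarch it became 1 with quantile normalisation and ranged from 0 to 2 as libraries were left out. For diet in livers of 9 months the count of 0 became 1 with DESeq2. For diet in livers of 5 months the count of 1 became 2 with array weights and ranged from 1 to 2 as libraries were left out. For age under fructose it became 0 without the 2 libraries with high Xist. For the difference of the diet effect between ages the count of 1 became 0 with a pseudocount of 0.5, upper quartile scaling, 1 fit of all 16 libraries, edgeR, or without the 2 libraries with high Xist, and ranged from 0 to 1 as libraries were left out. The cause was not tested in any of these.

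Signs turned for values that never passed. In cornstarch tumours against livers, Cldn4 was -0.0171 with a pseudocount of 0.5, -0.465 with quantile normalisation and -0.214 with array weights, and -1.15 to 1.23 as libraries were left out. Krt19 there was 0.345 with edgeR, 0.319 with DESeq2 and -1.78 to 1.19 as libraries were left out, and Krt7 -0.547 to 1.77. In 5-month livers quantile normalisation gave -0.217 for Epcam and -0.212 for Krt7, and Krt7 was -0.173 to 0.674 as libraries were left out. Sox9 in fructose tumours was -0.493 to 0.771. Krt7, Krt19, Epcam and Cldn4 rested on 120 to 267 reads each over all libraries, which limits what their comparisons can show. No paired analysis was possible because the labels do not say which tumours and livers came from the same mouse.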
